A study of Mus musculus with 8 samples.

Results

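The 10 genes described here are the classical markers of neural stem cells and of radial glia, the embryonic cells from which adult neural stem cells descend. They were chosen by symbol from a table of 45777 mouse genes, and all 10 were found there: Gfap, Nes, Vim, Sox2, Sox9, Slc1a3, Fabp7, Prom1, Pax6 and Nr2e1. The cells were neural stem cells of the subventricular zone, the stem cell niche beside the lateral ventricle. They came from 4 control samples (genotype WT) and 4 S1PR1-deficient samples (genotype S1pr1 deletion), lacking by label the receptor S1PR1 for the lipid sphingosine-1-phosphate. In each genotype, 2 samples received ApoM-HDL and 2 received ApoM+HDL, high-density lipoprotein labelled without or with apolipoprotein M, the carrier of that lipid. The labels do not say how the deletion was made, how old the mice were or whether replicates were separate cultures, so p-values measure only the spread between these samples. Total RNA was sequenced with a stranded kit after removal of ribosomal RNA.

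The deposited table gives each library a code of 2 letters and a number, CH, CV, GH or GV with 1 or 2, used here as its name. C was read as control because the control titles alone begin with it, and G as S1PR1-deficient by elimination. No source used here says which lipoprotein preparation H or V is, so a comparison of H with V has a sign but no named treatment. The targeted gene did not separate the first letters. Levels are given in CPM, read counts scaled to a common library size with a correction for composition (TMM). S1pr1 had 25.4 and 23.2 CPM in CH, 20.7 and 16.0 in CV, 23.2 and 21.2 in GH, and 22.2 and 22.4 in GV. The C and G libraries overlapped, with means of 21.3 ± 4.03 and 22.3 ± 0.824 CPM (SD, n = 4 each), and the adjusted p was 0.569. These gene-level counts do not show which part of S1pr1 the reads covered, so whether they could register the deletion was not tested. Every direction between genotypes below therefore rests on the letters alone, and the libraries are called C and G.

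Neural stem cells of this niche share the molecular profile of astrocytes. GFAP, vimentin and nestin build their intermediate filament network. The glutamate transporter GLAST (Slc1a3) and the brain fatty acid-binding protein BLBP (Fabp7) mark their astroglial and radial glial character, and the surface protein prominin-1 (Prom1, CD133) is used to sort them. The transcription factors SOX2, SOX9, PAX6 and TLX (Nr2e1) maintain self-renewal and fate in these cells.

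Fabp7, Nes and Vim are shown first by their promoters, because these 3 members were lower together in GV than in CV. RefSeq start sites on GRCm38.p6 were available for 9 of the 10 members, all but Sox9. The 250 bases before each start were searched on both strands for 5 motifs. The motifs were the TATA box (TATAAA), the CCAAT box (CCAAT), the GC box (GGGCGG), a SOX-type motif (ACAAAG) and an RBPJ-type motif (TGGGAA), and none of them contains another. Of 32851 mouse promoters of the same length, 12.4% held the TATA box, 33.8% the CCAAT box, 32.7% the GC box, 16.5% the SOX-type motif and 21.6% the RBPJ-type motif. In the sequences, read 5′ to 3′ on the gene's strand, capitals mark matches on either strand.
Fabp7, chr10:57784673-57784922, plus strand: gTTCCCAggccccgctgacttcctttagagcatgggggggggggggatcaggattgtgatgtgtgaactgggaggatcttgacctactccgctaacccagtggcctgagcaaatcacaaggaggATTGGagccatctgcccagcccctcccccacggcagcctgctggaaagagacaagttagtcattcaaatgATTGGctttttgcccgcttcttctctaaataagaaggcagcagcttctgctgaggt
Nes, chr3:87970843-87971092, plus strand: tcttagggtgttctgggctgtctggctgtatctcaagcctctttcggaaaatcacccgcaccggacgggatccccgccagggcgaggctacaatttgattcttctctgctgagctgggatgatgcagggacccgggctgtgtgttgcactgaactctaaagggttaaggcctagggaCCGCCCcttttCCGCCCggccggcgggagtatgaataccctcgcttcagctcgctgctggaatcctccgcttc
Vim, chr2:13574061-13574310, plus strand: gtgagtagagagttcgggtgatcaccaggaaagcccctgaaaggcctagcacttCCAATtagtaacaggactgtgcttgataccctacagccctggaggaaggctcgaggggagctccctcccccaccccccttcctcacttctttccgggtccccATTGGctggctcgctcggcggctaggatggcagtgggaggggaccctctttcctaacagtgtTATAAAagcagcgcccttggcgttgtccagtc

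The Fabp7 promoter held CCAAT boxes beginning 126 and 56 bases before the start and an RBPJ-type motif at its far end, 249 bases before it. The Nes promoter held a pair of GC boxes 73 and 62 bases before the start, and none of the other motifs. Vim had a TATA box 32 bases before the start and CCAAT boxes at 196 and 94 bases. No motif of the 5 was shared by all 3 genes. Among the members not printed, Sox2, a gene of 1 exon, held the SOX-type motif 206 bases before its start. Pax6 held it 154 bases before start site 2. The RBPJ-type motif lay at 115 bases in Gfap, 150 bases in Nr2e1 and 116 bases in Prom1 (start site 1). The CCAAT, GC and TATA boxes were not confined to the 3 printed genes. CCAAT boxes also lay in Slc1a3, Sox2, Pax6 (start site 1) and Prom1 (start site 1). GC boxes also lay in Slc1a3, Sox2 and Prom1 (start site 1). Slc1a3, which was higher in GV than in CV, held a TATA box 161 bases before its start.

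Sequencing depth was even. Total counts ran from 39619305 to 45698186 per library, and 20598 to 21797 genes had a count above 0. The 10 most abundant genes took 8.10% to 9.50% of the counts. The 2 libraries of each code differed by more than sampling noise, with chi-square values of 5.21 to 13.5 per degree of freedom, more than one library deposited again would show; whether they share a culture or RNA is not known. Defining markers of several other cell types were at or near 0: the 6 microglial genes summed to at most 0.300 CPM and the 4 fibroblast genes to at most 0.224 CPM in any library. The most abundant genes of the microglial, fibroblast and endothelial lists were P2ry12 (0 to 0.300 CPM), Col1a1 (0 to 0.159) and Kdr (0.720 to 1.79). Oligodendrocyte lineage factors were present, with Olig1 at 805 to 1180 CPM, as were Map2 at 1050 to 1370 CPM and Foxj1, an ependymal gene, at 12.3 to 18.0 CPM. These were the most abundant genes of their lists. Of the precursor list, Olig2 and Cspg4 were also high, but Sox10 reached at most 0.0479 CPM and Pdgfra 2.535 CPM. Of the neuronal list, Syt1 reached 23.47 CPM, but Snap25 at most 3.595 and Rbfox3 4.374 CPM. Of the ependymal list, Tmem212 was at 0 and Rsph1 reached at most 1.997 CPM. Whether such cells were present was not tested. In bulk RNA, fewer cells of a type and less RNA per cell cannot be told apart.

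The markers spanned a wide range of levels on the scale of CPM per kilobase of transcript, with lengths from GENCODE M21. Fabp7 was highest, at a mean of 2110 with a range of 1560 to 2510 over the 8 libraries. Vim followed at 803 (750 to 879), then Slc1a3 at 246 (222 to 260) and Nes at 122 (103 to 136). These 4 genes encode the radial glial fatty acid carrier, the glutamate transporter and a pair of filament proteins. The transcription factors came next, with Sox2 at 56.1 (47.3 to 61.2), Sox9 at 8.97 (7.73 to 10.7), Pax6 at 6.07 (5.64 to 6.67) and Nr2e1 at 3.27 (2.79 to 3.92). Prom1 at 0.437 (0.240 to 0.656) and Gfap at 0.131 (0 to 0.322) were the lowest. Ranges of neighbours in this order did not overlap, except those of Prom1 and Gfap.

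**Figure D1:**
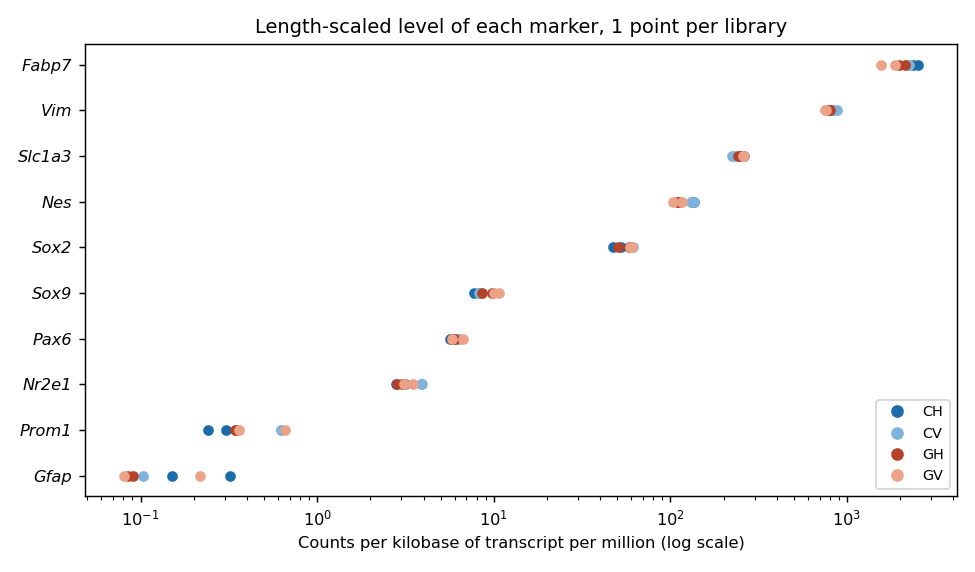
Level of each marker in CPM per kilobase of transcript on a log scale, 1 point per library coloured by code. Fabp7 lies between 1560 and 2510 and Prom1 and Gfap lie below 1; the CV1 library, in which Gfap is 0, has no point in the Gfap row.

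By CPM, Vim was the gene ranked 25 and Fabp7 the gene ranked 29 of the 17644 genes with enough counts to test, and Slc1a3 was ranked 70 and Nes 125. All 10 members entered the test. Gfap (chr11:102887336-102897200, minus strand) entered it on few reads: 16 and 38 in CH, 0 and 12 in CV, 10 and 9 in GH, and 26 and 9 in GV. The value of 0 in CV1 allows up to 3 counts, or 0.0771 CPM, counting error only. GFAP is the filament protein by which adult subventricular stem cells are usually recognised, and its transcript was barely detected in any library while Nes had at least 26516 reads and Vim at least 69460 in every library. No fold change is given for Gfap at these counts, and its adjusted p ranged from 0.197 to 0.985 over the 6 comparisons. Without CV2, which leaves CV with the library at 0, it passed between GV and CV (adjusted p = 0.0496). Other genes of mature astrocytes were uneven: Aldh1l1 reached 173 to 338 CPM, whereas Aqp4 reached 1.28 to 2.47 CPM.

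**Figure D2:**
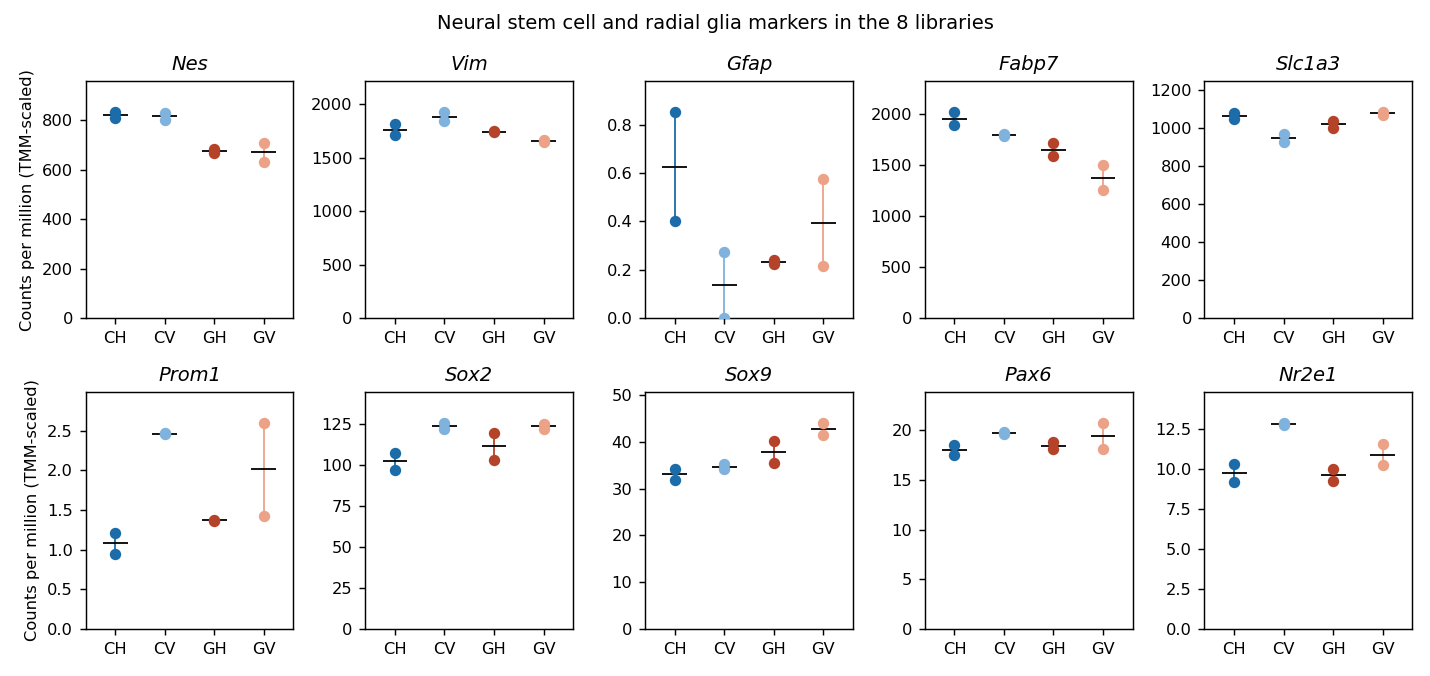
CPM (TMM-scaled, linear axes from 0) of the 10 markers in the 4 library codes; points are the 2 libraries of a code and the bar is their mean. Nes and Fabp7 are lower in all 4 G libraries than in any C library, and Sox9 is higher; Gfap stays below 1.

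Nes and Fabp7 were lower, and Sox9 was higher, in the libraries coded G than in those coded C, averaged over H and V. These were 3 of the 10 members, while 19.2% of all tested genes were called in that comparison (adjusted p under 0.05, edgeR quasi-likelihood test over all genes). The median log2 fold change was 0.015 over the members and -0.008 over all genes. Of all genes called, 47.1% were higher in G, or 70.9% when libraries were scaled by size alone, while Nes, Fabp7 and Sox9 kept their directions under each scaling. This comparison and the single ones share libraries and are not independent of each other.

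Nes (chr3:87971093-87980451, plus strand) encodes nestin, the filament protein of neural progenitors. It had 833 and 807 CPM in CH, 828 and 802 in CV, 683 and 668 in GH, and 708 and 631 in GV. All 4 G libraries lay below all 4 C libraries, at means of 672.7 ± 32.1 and 817.5 ± 15.2 CPM (SD, n = 4 each). The log2 fold change was -0.28 (SE 0.04, adjusted p = 0.00128), a level 17.7% lower. It was -0.28 in each single comparison too, GH with CH (adjusted p = 0.0396) and GV with CV (adjusted p = 0.00516). The value for GH and CH passed the threshold narrowly: its adjusted p was 0.0677 to 0.293 without any single library coded CH, CV or GH, and 0.0751 when libraries were scaled by size alone.

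Fabp7 (chr10:57784923-57788450, plus strand), the radial glial fatty acid-binding protein, varied by 14.3% over the 8 libraries (coefficient of variation), beside 5.30% for Vim. Its values were 1892 and 2021 CPM in CH, 1787 and 1804 in CV, 1714 and 1590 in GH, and 1252 and 1505 in GV. Every G library was below every C library, and the GV libraries were the lowest. Averaged, G was 19.5% lower than C (log2 fold change -0.31, SE 0.05, adjusted p = 0.00227). GV was 23.2% lower than CV (log2 fold change -0.38, SE 0.08, adjusted p = 0.00346). GH was 15.6% lower than CH, which did not pass (adjusted p = 0.144), although it passed with DESeq2 (0.0229), with no filter on low counts (0.0147) and without GV1 or GV2 (0.0223 and 0.0217).

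Sox9 (chr11:112782210-112787757, plus strand), a factor that sets up stem cell and astroglial identity, went the other way. It had 34.1 and 32.0 CPM in CH, 35.2 and 34.2 in CV, 40.2 and 35.4 in GH, and 44.1 and 41.5 in GV. The C and G libraries did not overlap, although GH2 and CV1 nearly met. G was 18.9% higher than C (log2 fold change 0.25, SE 0.06, adjusted p = 0.0113). The call was lost without CV2 (adjusted p = 0.0511) or without GH1 (0.0664).

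Vim, Slc1a3 and the other factors differed less. Vim (chr2:13574311-13582826, plus strand) had 1811 and 1710 CPM in CH, 1841 and 1927 in CV, 1751 and 1738 in GH, and 1645 and 1670 in GV. Averaged over H and V its log2 fold change was -0.10 (SE 0.04, adjusted p = 0.0697), and C and G overlapped. It passed with DESeq2 (adjusted p = 0.0441) and without CH2 (0.0398). Slc1a3 had an averaged log2 fold change of 0.06 (SE 0.04, adjusted p = 0.284), which passed with scaling by library size alone (0.115, adjusted p = 0.0315). For Sox2 the averaged log2 fold change was 0.06 (95% interval -0.06 to 0.17), for Pax6 0.01 (-0.14 to 0.15) and for Nr2e1 -0.12 (-0.30 to 0.05). The intervals of Sox2 and Pax6 did not reach the size of the Sox9 difference, and that of Nr2e1 did. Prom1, at 38 to 118 reads a library, had an interval of -0.45 to 0.50 and was not resolved at this depth. Pax6, a factor of radial glia and of dopaminergic neurogenesis, was the steadiest of the factors, at 18.5 and 17.6 CPM in CH, 19.6 and 19.8 in CV, 18.1 and 18.8 in GH, and 20.8 and 18.1 in GV. Reads of Sox2 (chr3:34649995-34652461, plus strand) could include the noncoding Sox2ot, which spans it on the same strand. Those of Pax6 (chr2:105668896-105698410, plus strand) could include the opposite-strand Pax6os1, since no source used here says that counting used strand. The same holds for Slc1a3 and Prom1, which overlap the same-strand Gm37310 and Gm42716, and for the opposite-strand Gm16401 at Prom1 and Gm26668 at Gfap.

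**Figure D3:**
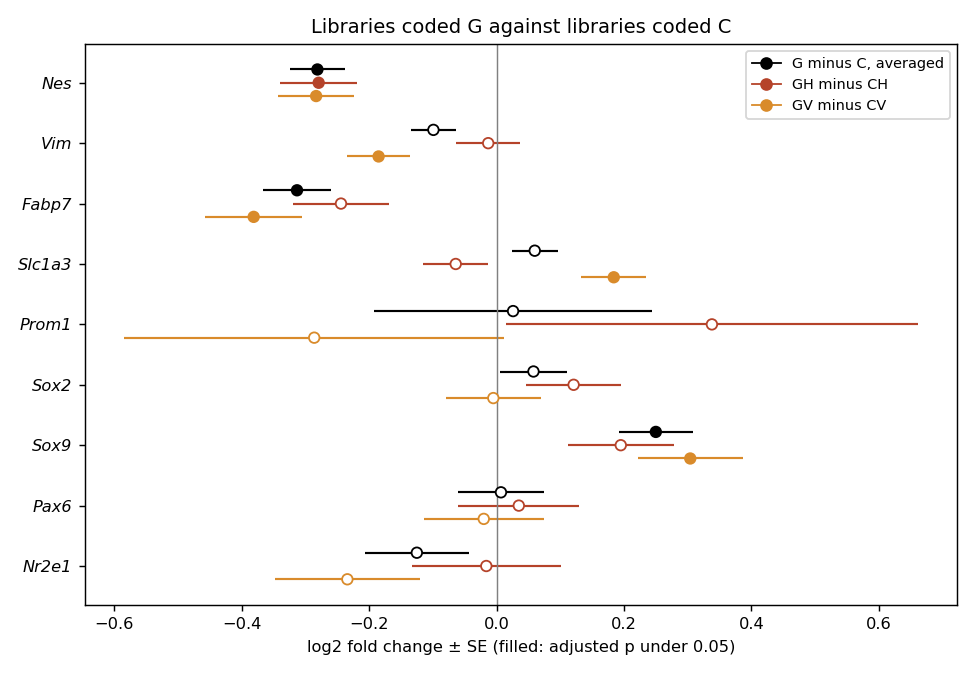
Log2 fold changes (points) with standard errors (bars) of 9 markers between libraries coded G and C, averaged over H and V and for each second letter; filled points have an adjusted p under 0.05. Nes and Fabp7 lie left of 0 and Sox9 right of 0 in all 3 comparisons; Gfap is left out for its low counts.

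Under V, 5 of the 10 members differed between the genotypes, beside 25% of all tested genes. Nes, Fabp7 and Vim were lower in GV than in CV, and Sox9 and Slc1a3 were higher. Vim was 12% lower (log2 fold change -0.18, SE 0.05, adjusted p = 0.0174), and its 2 GV libraries lay below both CV libraries. Sox9 was 23.5% higher (log2 fold change 0.30, SE 0.08, adjusted p = 0.0174). Slc1a3 (chr15:8634124-8710807, minus strand), the astroglial glutamate transporter, had 969 and 924 CPM in CV and 1083 and 1067 in GV, a level 13.6% higher (log2 fold change 0.18, SE 0.05, adjusted p = 0.0195). All of Vim, Sox9 and Slc1a3 lost the call without CV2, when the adjusted p was 0.138, 0.115 and 0.153 in that order. Nes and Fabp7 passed under every alternative run. For Sox9 it was also 0.0619 without CV1 and 0.102 without GV1, and for Vim it was 0.108 with scaling by library size alone.

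Under H, 1 of the 10 members, Nes, differed between the genotypes, beside 1.81% of all tested genes. Fabp7 and Sox9 had log2 fold changes of -0.24 and 0.20 between GH and CH, and neither passed (adjusted p = 0.144 and 0.316). Vim had a log2 fold change of -0.01 (SE 0.05) and Slc1a3 of -0.06 (SE 0.05) there.

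Whether the genotype difference itself changed with the second letter was tested as an interaction. It was called for 0 of the 10 members and for 7.35% of all tested genes. Unadjusted, 2 members had p under 0.05, Slc1a3 and Vim, and DESeq2 called 1 member, Slc1a3. Slc1a3 came closest, with 1048 and 1080 CPM in CH, 969 and 924 in CV, 1034 and 1001 in GH, and 1083 and 1067 in GV. H was above V in the C libraries and below it in the G libraries. Its interaction was -0.25 (log2, SE 0.07, adjusted p = 0.0557). It passed with RLE scaling (0.0407), scaling by library size alone (0.0288), no filter (0.0122), DESeq2 (0.00219) and without GV2 (0.0417). For Fabp7 it was 0.14 (SE 0.11, adjusted p = 0.479), which passed without GV2 (0.28, adjusted p = 0.0429). For Vim the interaction was 0.17 (SE 0.07, adjusted p = 0.154), and for Nes it was 0.00 (95% interval -0.18 to 0.19). That more members were called under V than under H was thus not shown as a difference for any single member in the fit of all 8 libraries with TMM scaling.

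Among the C libraries, 3 of the 10 members were lower in CH than in CV: Prom1, Nr2e1 and Sox2, beside 10.7% of all tested genes called in either direction. Prom1 (chr5:43993621-44102047, minus strand), the surface glycoprotein of stem cell membranes, had 0.951 and 1.21 CPM in CH and 2.47 and 2.46 in CV. The CH libraries held 38 and 54 reads and the CV libraries 96 and 108, a log2 fold change of -1.18 (SE 0.31, adjusted p = 0.0334). Nr2e1 (chr10:42561963-42583590, minus strand), which encodes the nuclear receptor TLX that keeps adult stem cells dividing, had 10.3 and 9.18 CPM in CH and 12.9 and 12.7 in CV. Its log2 fold change was -0.40 (SE 0.12, adjusted p = 0.0465), or 24% lower. Sox2, required for stem cell maintenance, had 108 and 97.4 CPM in CH against 126 and 122 in CV, a log2 fold change of -0.28 (SE 0.08, adjusted p = 0.0367).

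S1pr1 itself was higher in CH than in CV (log2 fold change 0.40, SE 0.12, adjusted p = 0.0433). The 3 calls of members were close to the threshold. None of the 3 stayed below it without CH2, CV1 or CV2, with adjusted p values from 0.0982 to 0.287. Sox2 was also lost with the replicate number as a block (0.0563). Prom1 (0.127) and Nr2e1 (0.0570) missed it without CH1, and both missed it without GH1 (0.0548 and 0.0732) or GH2 (0.0539 and 0.0720). DESeq2 gave Prom1 no adjusted p. Nr2e1 also missed it with DESeq2 (0.0655) and with no filter (0.0645). Slc1a3 was 12.4% higher in CH than in CV without passing (adjusted p = 0.0523). It passed with DESeq2 (0.00454), RLE scaling (0.0444), no filter (0.0190) and without GV1 (0.0296) or GV2 (0.0292).

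Among the G libraries, 0 of the 10 members were called between GH and GV, where 1.28% of all tested genes were. At an unadjusted p under 0.05 there were 2, Fabp7 and Sox9, and DESeq2 called 1, Fabp7. Fabp7 was 19.8% higher in GH than in GV (log2 fold change 0.26, SE 0.08, adjusted p = 0.115), and its adjusted p was 0.0158 with DESeq2, 0.0199 with no filter and 0.00282 without GV2. Prom1 had 1.37 and 1.38 CPM in GH and 2.60 and 1.43 in GV, so that GV1 alone stood high. The log2 differences of Sox2 (-0.15), Nr2e1 (-0.18) and Prom1 (-0.56) had the sign they had in the C libraries, and none passed.

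**Figure D4:**
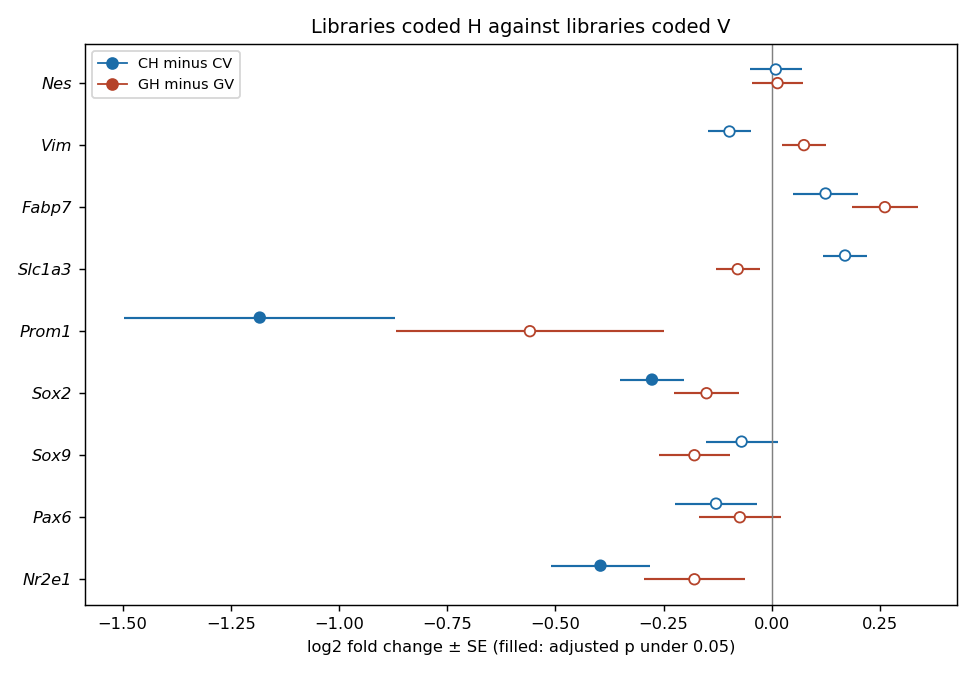
Log2 fold changes (points) with standard errors (bars) of 9 markers between libraries coded H and V, within the C and within the G libraries; filled points have an adjusted p under 0.05. Prom1, Sox2 and Nr2e1 are the filled points, all for CH minus CV and all left of 0.

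Other genes of the same cells were described from 3 lists. Of 16 further radial glia and stem cell genes, 1 was higher and 6 were lower in G than in C, where 19.2% of all tested genes were called, with a median log2 fold change of -0.14 beside -0.008 over all genes. The lower genes included Sox3, a relative of Sox2 (-0.45, SE 0.07, adjusted p = 0.00121), and Fabp5, the epidermal relative of Fabp7 (-0.23, SE 0.05, adjusted p = 0.00693). They also included the RNA-binding protein gene Msi1 (-0.25, adjusted p = 0.0101), the N-cadherin gene Cdh2 (-0.17, adjusted p = 0.0114) and Rfx4 (-0.14, adjusted p = 0.0309). Ptprz1, a receptor phosphatase of radial glia, was higher (0.14, SE 0.03, adjusted p = 0.0127). Tnc, an extracellular matrix protein of the niche, was the most abundant of this list at 2790 to 3570 CPM and was lower in G (-0.14, adjusted p = 0.0423).

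Of 9 genes of the quiescent, astroglial type of stem cell, 2 were higher and 1 was lower in G, beside the same 19.2% of all genes. Apoe, the lipid carrier of astroglia (0.33, SE 0.06, adjusted p = 0.00220), and the glutamate transporter Slc1a2 (0.19, adjusted p = 0.0119) were higher, and Id3, a target of BMP signals, was lower (-0.26, adjusted p = 0.00227). Of 10 genes of activated, dividing stem cells, 0 were higher and 2 were lower, the cell cycle kinase gene Cdk1 (-0.19, adjusted p = 0.00820) and the replication helicase gene Mcm2 (-0.18, adjusted p = 0.0126). The activated list's share is near the 19.2% of all genes and is not a result about that list. Egfr, the growth factor receptor of activated stem cells, and Mki67 did not pass in any of the 6 comparisons.

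Under V, 2 of the 16 radial glia and stem cell genes were higher and 4 were lower in GV than in CV, where 25% of all tested genes were called. Sox3 (-0.78, adjusted p = 0.000252), Fabp5 (-0.37, adjusted p = 0.00242), Msi1 (-0.29, adjusted p = 0.0192) and the Notch target Hes1 (-0.25, adjusted p = 0.0411) were lower. Ptprz1 (0.20, adjusted p = 0.00923) and the endothelin receptor gene Ednrb (0.20, adjusted p = 0.0325) were higher. Of the 9 quiescent-type genes only Id3 was called (-0.27, adjusted p = 0.00808), and of the activated genes Cdk1 (-0.26, adjusted p = 0.00686) and Mcm2 (-0.24, adjusted p = 0.0113) were lower and the cyclin gene Ccnd2 was higher (0.19, adjusted p = 0.0191). Under H, Cdh2 was lower (-0.25, adjusted p = 0.0409) and Apoe higher (0.59, adjusted p = 0.00279), and 0 of the 10 activated genes were called, beside 1.81% of all tested genes.

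In the interaction, 7.35% of all tested genes were called. Sox3 had 0.67 (log2, adjusted p = 0.0170) and Ednrb -0.39 (adjusted p = 0.0238), the only 2 called of the 16. Apoe (0.52, adjusted p = 0.0223) and Gja1 (-0.34, adjusted p = 0.0436) were called among the quiescent-type genes and Ccnd2 (-0.36, adjusted p = 0.0202) among the activated ones. Between GH and GV, Id3 was higher (0.37, adjusted p = 0.0201) and Slc1a2 lower (-0.34, adjusted p = 0.0279) in GH. None of the 16 or of the 10 passed there, beside 1.28% of all tested genes called.

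Between CH and CV, 10.7% of all tested genes were called. Of the 16 radial glia and stem cell genes, 1 was higher in CH (Ednrb, 0.30, adjusted p = 0.0112). Sox21 (-0.29, adjusted p = 0.0367) and Sox3 (-0.32, adjusted p = 0.0448) were lower, as Sox2 was. Of the 9 quiescent-type genes, Id3 and the connexin gene Gja1 were higher in CH, and Apoe (-0.57, adjusted p = 0.00184) and Slc1a2 (-0.37, adjusted p = 0.00541) were lower. Of the activated genes, Ccnd2 was higher (0.20, adjusted p = 0.0332).

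Markers of some other cells moved with the same comparisons, and their part in the results above was not tested. No tested ependymal, endothelial or microglial gene was called in any comparison, and no fibroblast gene had enough counts to test. Olig1, of the oligodendrocyte lineage, was lower in CH than in CV (-0.45, adjusted p = 0.00112). So were 3 of the 4 tested precursor genes, beside 10.7% of all tested genes called in either direction. Pdgfra, also of that list, had the other sign and did not pass (0.73, adjusted p = 0.184). The same 3, Olig1, Olig2 and Cspg4, had called interactions (log2 0.25 to 0.46, adjusted p = 0.0134 to 0.0487), beside 7.35% of all tested genes. Olig1 and Olig2 were lower in GV than in CV, where 25% of all tested genes were called. These comparisons all use the same CV libraries and are not independent. Olig1 had 1176 and 1133 CPM in CV beside 805.1 to 988.7 CPM elsewhere. Olig2 had 569.5 and 579.2 CPM in CV beside 495.3 to 533.5 CPM elsewhere. Cspg4 was higher in GH than in CH (0.35, adjusted p = 0.0381), where 1.81% were called. The summed precursor genes reached 1430 to 1950 CPM in C and 1650 to 1700 CPM in G. Of the 4 neuronal genes, Syt1, Snap25 and Rbfox3 were lower in CH than in CV (-0.56, -1.06 and -0.99, adjusted p = 0.0140, 0.0128 and 0.0317). In G, Syt1 (0.58, adjusted p = 0.000955) and Snap25 (0.58, adjusted p = 0.0190) were higher than in C, averaged. Map2 (0.12, adjusted p = 0.0783) and Rbfox3 (0.04, adjusted p = 0.915) did not pass there. Syt1 was higher both in GH than in CH (0.72, adjusted p = 0.0107) and in GV than in CV (0.44, adjusted p = 0.0154). Map2 was higher in GV than in CV (0.26, adjusted p = 0.00888). Snap25 (1.402 to 3.595 CPM) and Rbfox3 (1.777 to 4.374 CPM) were low in all libraries. The 4 neuronal genes summed to 1070 to 1230 CPM in C and 1180 to 1400 CPM in G, nearly all of it Map2. Aldh1l1, a folate enzyme of astrocytes, was lower in G (-0.82, SE 0.04, adjusted p = 5.28e-07), at 173 to 179 CPM beside 280.4 to 338 CPM in C. S100b, a calcium-binding protein of astrocytes, was higher in G (0.48, SE 0.10, adjusted p = 0.00703), at 8.743 to 10.96 CPM beside 6.555 to 7.996 CPM in C, and Aqp4 did not pass (-0.05, adjusted p = 0.904). The 4 mature astrocyte genes summed to 289 to 347 CPM in C and 185 to 191 CPM in G, nearly all of it Aldh1l1. Of the 5 neuroblast genes tested, Nrxn3 was higher (0.51, adjusted p = 0.0166) and Tubb3 lower (-0.38, adjusted p = 0.00983) in G, averaged. In that comparison 19.2% of all tested genes were called. Nrxn3 stood highest in GV1, at 73.91 CPM, beside 38.76 to 42.62 CPM in GH1, GH2 and GV2 and 30.93 to 36.23 CPM in C. Under H it did not pass (0.27, adjusted p = 0.599), and under V it did (0.76, adjusted p = 0.00992). Dlx5 was at 0 in every library. The mural gene Acta2 was highest in CH, at 8.43 and 5.36 CPM beside 0.596 to 1.78 CPM elsewhere, while Pdgfrb was at 0. Mbp, of oligodendrocytes, was lower in CH than in CV (adjusted p = 0.0232) at 0 to 1.32 CPM in all libraries. The 5 genes whose profile over the 8 libraries was most like the members' mean standardised profile were Cacna1a, Gm10557, Myo10, Dynll2 and Il17rd, with Pearson r from 0.959 to 0.973. They were picked for having the highest r of all tested genes outside the members. The mean weighs every member equally, Gfap included, and mixes Nes and Fabp7, lower in G, with Sox9, which was higher. This likeness is a description of 8 libraries that share 4 codes.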

How the data were processed

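Per the file headers, the authors deposited 3 measures per gene, read count, FPKM and TPM. Per the submitters' processing notes, tools included the aligner HISAT2 2.1.0 and the assembler StringTie 2.1.3b, besides Trimmomatic and bcl2fastq 2.20.0, with GRCm38 (mm10). How read counts were taken from these tools is not given in the sources used here. The deposited counts were used as they stand. The 16 FPKM and TPM columns were not used, since columns assigned by group can carry 1 measure each.

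Genes were kept by edgeR's filterByExpr (17644 of 45777). With edgeR 4.0.16 (R 4.3.3), counts were TMM-scaled and fitted with 1 mean for each of the 4 codes over all 8 libraries, leaving 4 residual degrees of freedom. Quasi-likelihood F tests gave 6 comparisons, with Benjamini-Hochberg adjustment over all genes and a threshold of 0.05. Standard errors come from the F statistics. The fit was also run on simulated counts with 200 changed genes and the same dispersion for every gene. Its outcome is not given here and does not show how well the fit suits these libraries. Alternatives were DESeq2 1.42.0, RLE scaling, library size alone, no filter beyond a count above 0, the replicate number as a block, and leaving out each library. All members are named. From the 3 stem cell lists, called genes are named, up to 6 a list and comparison by adjusted p, and from each list of other cell types the most abundant gene; Tnc, Egfr, Mki67 and the further markers of other cell types were singled out after their values were seen. The members and lists were chosen with earlier results of these data known. The results for 2 genes of the lists are not reported here.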

Additional observations from a re-analysis of the deposited data

Results flagged for a closer look

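Dixon's test was run on 22 groups of 4 libraries, the markers and S1pr1 in C and in G, and 2 of them held a library that stood apart, GV1 both times. Chance flags about 1 in 20 groups when all 4 values come from the same distribution. Each group here pooled H and V libraries, so that rate may not apply. Gfap had 0.574 CPM in GV1 (26 reads), and the other 3 G libraries had 0.214 to 0.240 CPM (9 or 10 reads). Prom1 had 2.60 CPM in GV1 (118 reads), and the other 3 had 1.37 to 1.43 CPM (55 to 60 reads). Without GV1 the averaged log2 fold change of Prom1 between G and C was -0.22, and without GV2 it was 0.21.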

How the results depend on the processing

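Of 155 recomputed values for the called members, 122 kept their call, 33 kept the direction only and 0 reversed. Nes and Fabp7, averaged and under V, passed in all 13 alternatives. The number of members called (3 averaged, 1 under H, 5 under V, 3 for CH against CV, 0 for GH against GV, 0 in the interaction) became, in that order, 4, 2, 5, 2, 1 and 1 with DESeq2, and 3, 1, 5, 4, 0 and 1 with RLE scaling. It became 4, 0, 4, 3, 0 and 1 with library size alone, and 3, 2, 5, 3, 1 and 1 with no filter. Without 1 library it ranged over 2 to 4, 0 to 2, 3 to 5, 0 to 4, 0 to 1 and 0 to 2, where a code left with 1 library is assumed to vary like the others. Libraries with the same replicate number showed no correlated deviations over all tested genes (-0.05 to 0.01). Genes with few reads counted as much as others there, so this cannot exclude pairing. With the replicate block the numbers of members called were 3, 1, 5, 2, 0 and 0. All genes called averaged fell from 3387 to 3080 with it.

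Of all genes called, the share that was higher moved from 41.9% to 58.7% under H, from 46.5% to 65.5% under V, from 89.4% to 72.3% for GH against GV and from 53.5% to 40.6% in the interaction with library size alone; DESeq2 gave 71.7% and 43.4% for the last 2, and RLE scaling gave 43.9% for the interaction. All genes called for GH against GV, 226, became 668 with DESeq2, 575 with no filter, 137 with library size alone or the block, and 8 to 843 without 1 library. The 320 under H became 567, 552, 329, 203 and 45 to 415 in the same order. The block gave 873 genes in the interaction beside 1296, and no filter gave 1865 and DESeq2 2022. Without 1 library the number was 1585 to 3391 averaged, 1950 to 4444 under V, 255 to 2169 for CH against CV and 56 to 1450 in the interaction.

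Members that were not called changed sign 43 times in 543 values. Under V, Sox2 was 0.015 and Pax6 0.000 (log2) with DESeq2 or RLE scaling, 0.067 and 0.053 with library size alone, and 0.025 and 0.009 with no filter. For GH against GV, Nes was -0.003 with DESeq2 or RLE scaling, -0.035 with library size alone and -0.008 with no filter. Its interaction was -0.019 with DESeq2 or RLE scaling and -0.030 with library size alone or no filter. With library size alone, Vim was 0.026 and Nr2e1 0.023 under H, and Nes -0.005 for CH against CV. Without 1 library, Prom1 ranged from -0.223 to 0.209 averaged and from -0.784 to 0.079 under V. Pax6 ranged from -0.044 to 0.055 averaged, -0.003 to 0.073 under H, -0.123 to 0.075 under V, -0.169 to 0.029 for GH against GV and -0.041 to 0.158 in the interaction. Nes ranged from -0.014 to 0.032 for CH against CV, -0.068 to 0.097 for GH against GV and -0.076 to 0.088 in the interaction. Vim (-0.054 to 0.030) and Nr2e1 (-0.097 to 0.068) changed sign under H, and Sox2 (-0.026 to 0.017) under V. The cause of these changes was not tested. Gfap and Prom1, at 0 to 118 reads, are the members that depth limits.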
